A study of Bactrocera dorsalis with 6 samples.

Results

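The unigenes described here are those of the oriental fruit fly, Bactrocera dorsalis, that were expressed in every sampled stage from larva to mated adult and were low in eggs. A unigene is a gene-level group of transcripts assembled from RNA reads without a genome. Of 10799 unigenes, 64 (0.593%) met the rule below, and 62 are described, since comp28303_c1 (Lsp2) and comp29180_c1 (CYP4G1) were left out by the rule itself. The rule took unigenes with an FPKM (fragments scaled to transcript length and to library size) of at least 11 in larvae, pupae, males, females and mated females and below 4 in eggs, or of at least 26 in these 5 libraries and below 11 in eggs. The bounds are those of the expression categories used in the study, so that the egg level lies at least a full category below the others. Members were thus chosen by their FPKM in all 6 libraries, and the levels below are a description.

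RNA of whole insects from the laboratory colony "Punador", with no treatment, was sequenced as 1 library per stage. The eggs came from the colony, which is kept on a mill feed diet. Larvae were reared on a liquid artificial diet, and adults were given sugar water and torula yeast. Food and stage thus cannot be told apart. The stages were eggs, larvae, pupae, adult males, adult females and mated adult females. Each library other than that of mated females pooled RNA from daily collections of its stage. Mated females were collected after the daily collections of unmated adults had ended. Age and mating thus cannot be told apart where mated females are compared with the other adults. With 1 library per stage, no difference between stages could be set against a spread between replicates, and none was tested. Intervals are at the 95% level and cover counting error only.

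Many insect genes are silent or nearly so in the egg and are switched on once the animal feeds, grows a cuticle and meets foreign compounds. Cytochrome P450 enzymes (P450s) oxidise hormones, lipids, plant compounds and insecticides, glutathione S-transferases (GSTs) attach glutathione to reactive compounds, and UDP-glycosyltransferases (UGTs) attach a sugar to make compounds easier to excrete. In Drosophila melanogaster the transcription factor CncC, held back by its partner Keap1, switches on many detoxification genes.

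The library of unmated females is called the female-labelled library here, for the following reason. dsx, the doublesex gene (comp25690_c0), is spliced differently in the sexes of flies, and its isoform shares of counts in this library differed by 21.8 percentage points (the share of counts that would have to change isoform) from those of the male library and by 85.5 points from those of the mated female library. The male and mated female libraries differed by 84.7 points. The label of this library is thus in doubt, and each comparison that uses it carries that doubt. When it was left out of the rule, 63 unigenes were chosen, and these held all 62 members.

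Expected counts, the estimated read pairs assigned to each unigene, summed to between 7386960 and 9905262 per library. The members took 0.0549% of the counts in eggs, 0.568% in larvae, 1.35% in pupae, 1.11% in the male, 1.05% in the female-labelled and 0.645% in the mated female library. In whole insects a smaller tissue and less RNA per cell cannot be told apart.

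In eggs the members had a median FPKM of 3.22, with a range of 0.08 to 10.66. The median FPKM was 38.8 in larvae, 65.6 in pupae, 66.0 in the male, 61.8 in the female-labelled and 42.0 in the mated female library. Over the 2934 unigenes at FPKM 11 or more in these 5 libraries, the corresponding medians were 42.9, 41.4, 40.4, 38.4 and 45.3, and that of eggs was 44.5. Of these 2934, 64 (2.18%) met the bounds.

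The pair of bounds at 11 and 4 alone gave 30 members, the pair at 26 and 11 alone gave 23, and 9 met both pairs. At the edge of the pair at 11 and 4, comp25919_c0 (eggs 3.98, lowest later FPKM 12.26 in larvae) and comp27893_c0 (3.96 and 21.78 in larvae) lay just inside, and comp22787_c0 (4.03 and 18.07 in males), comp26423_c0 (4.10 and 14.58 in mated females) and comp24877_c0 (3.83 and 10.72 in pupae) lay just outside. At the edge of the pair at 26 and 11, comp25529_c0 (eggs 6.05, lowest later FPKM 26.29 in larvae) and comp28740_c0 (2.79 and 26.73 in larvae) lay just inside, and comp28871_c0 (7.63 and 25.91 in pupae) and comp27959_c0 (7.36 and 25.48 in larvae) just outside. The number chosen depends on the scaling and on each of 3 libraries. It was 41 without TMM factors (39 of them members), 163 with larvae left out, 119 with pupae left out and 139 with mated females left out. On the egg side of the edge at 26 and 11, comp25318_c0 at 10.66 was inside and comp22930_c0 at 11.16 was outside.

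**Figure D1:**
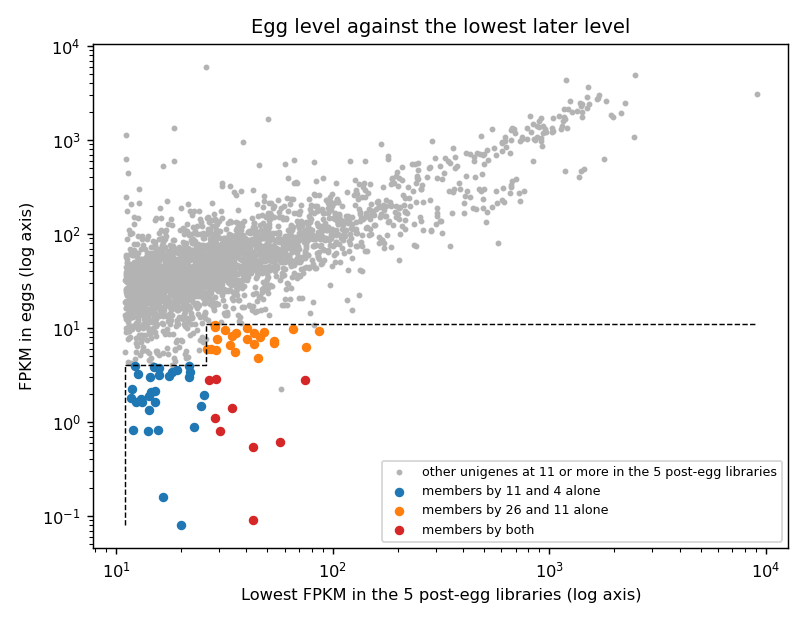
FPKM in eggs (vertical, log axis) against the lowest FPKM of the 5 later libraries (horizontal, log axis) for each unigene at 11 or more in all 5, with members coloured by the pair of bounds they met and the bounds dashed. The 62 members lie between FPKM 0.08 and 10.66 in eggs, and the grey points inside the bounds are the unigenes left out by the rule.

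The same bounds were applied with each other library in the place of eggs. In this setting 10 unigenes (0.0926%) were low in larvae alone, 31 (0.287%) in pupae alone and 31 (0.287%) in mated females alone. In the male library and in the female-labelled library, 0 unigenes (0%) were low alone. Eggs, with 64, had the largest number of the 6 libraries, with the FPKM as deposited, without TMM factors, with DESeq2 size factors and with FPKM summed over isoforms. The male and female-labelled libraries were themselves nearly equal, with a Spearman coefficient of 0.991 across all unigenes, which is a description and not a test. The lead of eggs was small without the TMM factors that the authors applied to make libraries comparable. In that setting 42 unigenes were low in eggs alone, 37 in pupae alone, 37 in mated females alone and 20 in larvae alone.

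Egg counts behind the members were low but rarely near 0. They ran from 1 to 224 with a median of 55.5, and 7 members had fewer than 10 egg counts while 15 had 100 or more. With the egg level of each member at the upper end of its exact Poisson interval, 46 of the 62 still met a pair of bounds. Unigenes with 0 egg counts could not be members, since all 1203 of them are listed at FPKM 0 in every library of the deposited table.

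The lowest later library was a median of 6.79-fold above eggs, with a range of 2.68-fold to 487-fold, and the highest was a median of 30.1-fold above, with a range of 6.64-fold to 5504-fold. With 1 added to each FPKM, the ratio of the mean of the 5 later libraries to eggs had a median of 12.1 and ran from 4.75 to 254. These ratios were set in part by the rule, which asks for a gap between eggs and the rest.

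**Figure D2:**
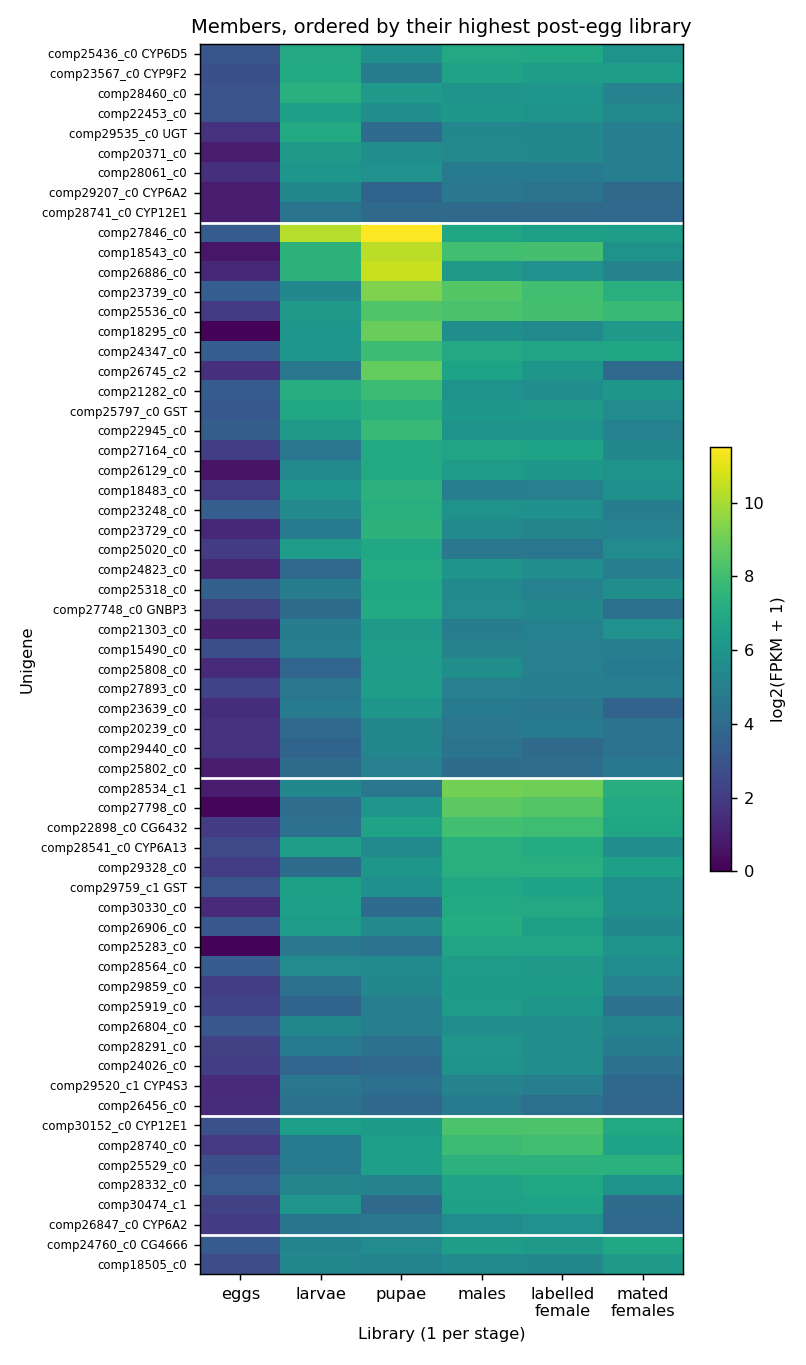
Level of each of the 62 members in the 6 libraries as log2(FPKM + 1), ordered by the library with the highest level, with white lines between those groups. Eggs form the dark column, 28 members peak in pupae, and the male library and the female-labelled library look alike.

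P450s were frequent among the members. The study's additional files list 92 P450, 34 GST and 23 UGT unigenes, and 8 P450s, 2 GSTs and 1 UGT were members, 11 in all. P450s made up 12.9% of the members, against 0.852% of all unigenes and 0.852% of the 2934 unigenes at 11 or more in the later libraries. Of the 25 P450s at that level, 9 (36%, CYP4G1 included) met the bounds, while 2.18% of all such unigenes did. Of the 24 GSTs at that level, 2 (8.33%) were members, as was 1 of the 6 UGTs (16.7%). In eggs, 20 of the 34 listed GSTs, 7 of the 23 UGTs and 9 of the 92 P450s were at FPKM 26 or more. A further 13 P450s had 0 egg counts and are listed at FPKM 0. The lists were chosen with earlier results of these data known, and no set test was run.

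comp30152_c0, annotated as CYP12E1, a mitochondrial P450, had the highest mean FPKM of these enzymes in the deposited values. Its FPKM was 6.27 in eggs, 88.42 in larvae, 75.53 in pupae, 300.69 in the male, 317.33 in the female-labelled and 125.92 in the mated female library, so the 2 unmated adult libraries were highest and eggs were lowest. From 37 egg counts, its level in the female-labelled library was 50.6-fold that of eggs (interval 36.5 to 72.1). The size of these FPKM values depends on the transcript length used. Summed over its 6 isoforms, the FPKM was 5.20 in eggs, 34.5 in larvae, 47.1 in pupae, 109 in the male, 122 in the female-labelled and 41.7 in the mated female library, so that the 5 later values averaged 0.418 of those listed. Its later mean was then 70.8, below the 143 of comp28541_c0 (CYP6A13), pupae stood above larvae, and the level of the female-labelled library was 23.4-fold that of eggs. A copy with the same annotation, comp28741_c0, was the flattest member after eggs in the deposited values, with FPKM 0.81 in eggs, 20.43 in larvae, 14.81 in pupae, 14.99 in the male, 14.59 in the female-labelled and 14.07 in the mated female library. Its highest later library was 1.45-fold its lowest. Summed over its 5 isoforms the range was 1.88-fold, with mated females highest, at FPKM 28.1, in place of larvae, at 18.6. Where unigenes share near-identical stretches, as copies of a P450 can, reads may have been split between them with error.

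CYP6 enzymes, many of which act on plant compounds and insecticides in flies, gave 4 members. comp28541_c0 (CYP6A13) was at FPKM 4.81 in eggs, 85.91 in larvae, 45.16 in pupae, 156.78 in the male, 135.19 in the female-labelled and 48.90 in the mated female library. comp25436_c0 (CYP6D5) was at 7.34, 123.14, 53.42, 123.02, 114.46 and 57.15 FPKM in the same order. In both, larvae, males and the female-labelled library stood above pupae and mated females in the deposited values. Summed over its 8 isoforms, comp28541_c0 was at FPKM 4.57 in eggs, 75.5 in larvae, 56.9 in pupae, 269 in the male, 232 in the female-labelled and 79.5 in the mated female library, so that larvae no longer stood above mated females. The copies annotated as CYP6A2 differed in their profile. comp29207_c0 peaked in larvae, at FPKM 40.56, against 0.83 in eggs, 11.95 in pupae, 23.41 in the male, 20.54 in the female-labelled and 14.84 in the mated female library. comp26847_c0 peaked in the female-labelled library, at FPKM 55.07, against 3.02 in eggs, 20.93 in larvae, 23.26 in pupae, 47.86 in the male and 14.41 in the mated female library. The latter set the female-labelled library most apart of all members, by 1.15-fold over males.

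comp23567_c0 (CYP9F2) was highest in larvae, at FPKM 130.42, with 6.01 in eggs, 27.50 in pupae, 97.47 in the male, 85.79 in the female-labelled and 85.60 in the mated female library. Pupae were its low point after eggs. comp29520_c1 (CYP4S3) was a low member, with FPKM 1.64 in eggs from 14 counts, 22.15 in larvae, 17.49 in pupae, 34.04 in the male, 29.69 in the female-labelled and 13.21 in the mated female library. All 5 later libraries lay above its egg level by at least the 8.06-fold of mated females (interval 4.62 to 15.2).

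The GST comp25797_c0 was the enzyme of this group that peaked in pupae, at FPKM 159.88, with 8.11 in eggs, 116.29 in larvae, 70.17 in the male, 73.88 in the female-labelled and 46.16 in the mated female library. The GST comp29759_c1 was at FPKM 6.99 in eggs, 91.54 in larvae, 53.59 in pupae, 116.20 in the male, 102.14 in the female-labelled and 54.53 in the mated female library. Its pupal level was thus the lowest after eggs, where the pupal level of the other GST was the highest. The UGT comp29535_c0 was the member most set apart in larvae, by 3.12-fold over the next library. It was at FPKM 2.16 in eggs, 125.10 in larvae, 15.11 in pupae, 39.69 in the male, 40.06 in the female-labelled and 29.39 in the mated female library.

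**Figure D3:**
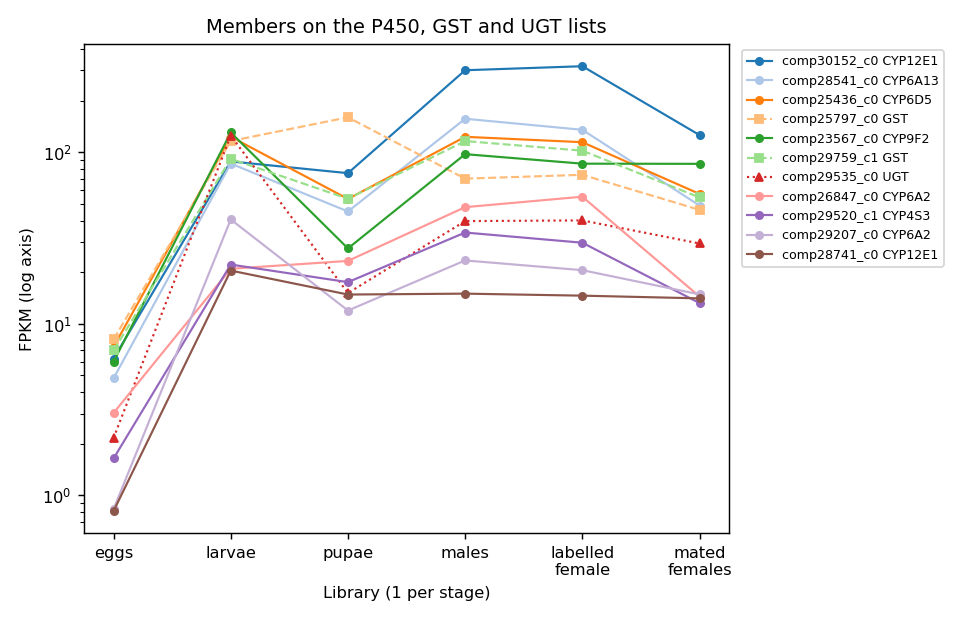
FPKM (log axis) of the 11 members on the P450, GST and UGT lists in the 6 libraries, 1 per stage, with circles for P450s, squares for GSTs and triangles for the UGT. In these deposited values larvae lie above pupae for 9 of the 11, and the GST comp25797_c0 is the exception that peaks in pupae.

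In the deposited values, larval peaks were the most frequent among the 11 enzymes and pupal peaks among the other 51 members. This difference was not tested. The lead of larvae among the enzymes did not hold with other scalings or with FPKM summed over isoforms. The enzymes were highest in larvae for 5, in males for 3, in the female-labelled library for 2 and in pupae for 1, while the other members were highest in pupae for 27, in males for 14, in larvae for 4, in the female-labelled library for 4 and in mated females for 2. Larvae exceeded pupae in 9 of the 11 enzymes and in 15 of the 51 other members. This order was not particular to the enzymes low in eggs. Larvae also exceeded pupae in most listed P450s that were at FPKM 11 or more in every later library but were not members. Listed GSTs of that kind went either way. No such share was computed over all unigenes at that level. The median ratio of pupae to males was 0.461 for the enzymes and 1.47 for the others, and that of larvae to males was 1.0 and 0.580. comp25436_c0 is among the 5 highest in larvae, at FPKM 123.14 against 123.02 in males. Without TMM factors, and also with DESeq2 size factors, larvae and males were each highest for 4 of the 11. With FPKM summed over isoforms, males were highest for 4, larvae for 3, the female-labelled library for 2, and pupae and mated females for 1 each. Larvae then exceeded pupae in 8 of the 11, and in 11 of the 51. Egg counts of the enzymes ran from 14 to 116, so none of their egg levels rests on a few counts alone.

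The list of B. dorsalis matches to D. melanogaster genes profiled for the CncC/Keap1 pathway holds 141 unigenes, of which 36 were at 11 or more in the later libraries and 4 were members. With Lsp2, which the rule left out, 5 of the 36 (13.9%) met the bounds, against 2.18% of the 2934, and without TMM factors the rule took 1 unigene of the list in place of 4. CYP6D5, described above, is among the 4. comp22898_c0 is matched to CG6432, annotated in D. melanogaster with acetate-CoA ligase activity, the making of acetyl-CoA from acetate. Its FPKM was 3.11 in eggs, 17.50 in larvae, 98.40 in pupae, 263.80 in the male, 243.67 in the female-labelled and 111.31 in the mated female library, a 15.1-fold range after eggs with larvae at the bottom. comp24760_c0, matched to CG4666, which carries no functional annotation in the list, was at FPKM 8.90, 35.98, 46.03, 86.35, 72.27 and 114.90 in the same order and was 1 of the 2 members highest in mated females. comp27748_c0 is matched to GNBP3, a recognition protein for fungi in D. melanogaster. It peaked in pupae, at FPKM 129.78, with 3.79 in eggs, 15.77 in larvae, 46.58 in the male, 39.47 in the female-labelled and 18.24 in the mated female library. Larvae and mated females were thus its low points after eggs.

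Pupae were the most frequent peak among all members. Of the 62, 28 (45.2%) were highest in pupae, 17 (27.4%) in males, 9 (14.5%) in larvae, 6 (9.68%) in the female-labelled library and 2 (3.23%) in mated females. Among the 2934 unigenes at 11 or more in the later libraries, the shares were 18.3%, 12.4%, 29.6%, 8.83% and 30.9%. The rule sets a floor in these 5 libraries and does not name their order, but it also asks for a low egg level. Over the 2934 the ratios of larvae to males and of mated females to the female-labelled library moved with the egg level, as given below. The shares of the members and of the 2934 are thus not matched on egg level. In 15 of the 28, pupae stood at least 2-fold above the next library, which held for 2 of the members highest in larvae and for 0 of those highest in the other 3 libraries. The share of the 2934 with such a gap was not computed, so these counts describe the members only. The lowest later library was larvae in 23 members (37.1%), mated females in 17 (27.4%), pupae in 16 (25.8%), males in 3 (4.84%) and the female-labelled library in 3 (4.84%). Among the 2934 the shares were 21.1%, 20.9%, 17.7%, 14.9% and 25.5% in that order.

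The highest level of any member was the pupal FPKM of comp27846_c0, which the study pairs with the D. melanogaster gene FBgn0030362. It was at FPKM 9.33 in eggs from 100 counts, 1197.50 in larvae, 2918.19 in pupae, 109.96 in the male, 92.29 in the female-labelled and 86.30 in the mated female library. Larvae and pupae stood apart from the 3 adult libraries, and the pupal level was 313-fold that of eggs (interval 257 to 385). comp26886_c0, with no annotation used here, was the member most set apart in pupae, by 8.66-fold over larvae. Its FPKM was 1.40 in eggs, 175.04 in larvae, 1515.34 in pupae, 73.90 in the male, 56.19 in the female-labelled and 34.37 in the mated female library, and its 44.1-fold range over the later libraries was the widest of the members.

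comp18543_c0 had the largest ratio of the later mean to eggs of all members, 254 with 1 added to each FPKM. From 5 egg counts it was at FPKM 0.62 in eggs, with 171.06 in larvae, 1284.25 in pupae, 261.89 in the male, 275.03 in the female-labelled and 57.10 in the mated female library. Mated females were the low point after eggs and still 91.8-fold above them, with a wide interval of 39.1 to 284. comp18295_c0 rested on a single egg count, at FPKM 0.09, against 64.27 in larvae, 486.72 in pupae, 52.98 in the male, 43.05 in the female-labelled and 73.86 in the mated female library. The ratio of pupae to eggs was 5504 with an interval of 987 to 217432, so its size is hardly set by these counts.

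comp23739_c0 was high in pupae and males, with FPKM 10.01 in eggs, 40.41 in larvae, 629.94 in pupae, 351.26 in the male, 257.00 in the female-labelled and 150.52 in the mated female library. Larvae were nearest to eggs in this unigene, at 4.04-fold (interval 3.19 to 5.15). comp25536_c0 was more even, with FPKM 2.83 in eggs, 74.52 in larvae, 333.97 in pupae, 293.07 in the male, 275.73 in the female-labelled and 217.47 in the mated female library. Each of its later libraries lay at least 26.3-fold above eggs (interval of the lowest, 19.5 to 36.4). No annotation was used for either. The remaining pupal peaks ran from FPKM 31.28, in comp25802_c0, up to 435.78, in comp26745_c2, whose mated female level of 14.15 was the lowest after eggs.

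Males or the female-labelled library were highest for 23 members. comp28534_c1 was at FPKM 0.89 in eggs from 17 counts, 40.07 in larvae, 22.98 in pupae, 556.87 in the male, 496.86 in the female-labelled and 143.91 in the mated female library. Both unmated adult libraries stood more than 10-fold above larvae and pupae. comp27798_c0, which the study pairs with 10 D. melanogaster genes, FBgn0002569 among them, was at FPKM 0.16 in eggs from 4 counts, 16.50 in larvae, 63.95 in pupae, 393.38 in the male, 348.66 in the female-labelled and 129.31 in the mated female library. Its male level was 2500-fold that of eggs with an interval of 976 to 9178, and after eggs larvae were its lowest library. comp26906_c0 set males most apart, by 1.48-fold over the female-labelled library, with FPKM 7.61 in eggs, 79.29 in larvae, 42.05 in pupae, 136.76 in the male, 92.16 in the female-labelled and 40.27 in the mated female library.

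Mated females were highest for comp24760_c0 (CG4666) and for comp18505_c0. The latter was at FPKM 5.54 in eggs, 39.57 in larvae, 35.52 in pupae, 42.79 in the male, 41.03 in the female-labelled and 71.73 in the mated female library. The other 4 libraries lay close together, and mated females were 1.68-fold above the next. comp20371_c0, paired with FBgn0040323, was among the 9 highest in larvae and had a 2.44-fold range after eggs. It was at FPKM 0.81 in eggs, 73.93 in larvae, 50.40 in pupae, 41.47 in the male, 38.73 in the female-labelled and 30.34 in the mated female library. Its lowest later library was 37.4-fold above eggs (interval 23.2 to 64.7).

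The members nearest to their egg level were comp25318_c0, comp26804_c0 and comp28564_c0. comp25318_c0 was at FPKM 10.66 in eggs, 28.62 in larvae, 113.23 in pupae, 44.53 in the male, 32.83 in the female-labelled and 52.48 in the mated female library. Its larval level was 2.68-fold that of eggs (interval 2.13 to 3.40), the smallest such fold among the members. comp26804_c0 was at FPKM 7.64, 38.05, 29.10, 50.72, 49.93 and 35.25 in the same order. comp28564_c0 was at 8.92, 45.36, 43.30, 81.58, 73.43 and 47.27 FPKM. In the latter pair the 5 later libraries were nearly level, with a range under 2-fold as deposited and of 2.11-fold for comp28564_c0 summed over isoforms.

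The highest of the 5 later libraries was a median of 4.58-fold above the lowest, with a range of 1.45-fold to 44.1-fold, against a median of 2.34-fold over the 2934 unigenes. These share the floor of 11 and are not matched on level, and the medians given above for pupae and unmated adults are higher in the members. A range of 10-fold or more was seen in 9 members (14.5%) and in 3.10% of the 2934. A range of 2-fold or less was seen in 5 members, and its share of the 2934 was not computed. All 5 later libraries were at FPKM 26 or more in 32 members, and 0 members were past 100 in all 5.

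Larvae were lower than males in most members. The ratio of larvae to males had a median of 0.647 over the members and 1.12 over the 2934 unigenes. Over the 2934 this median also moved with the egg level. It was 0.604 for unigenes below FPKM 4 in eggs and 0.723 from 4 to below 11. From 11 to below 26 it was 0.948, from 26 to below 51 it was 1.14, and at 51 or more it was 1.27. The groups below 11 hold the members, so the 2934 are not matched to the members on egg level. Larvae were at least 2-fold below males in 22 members (35.5%), against 11.1% of the 2934, and at least 2-fold above in 8 members (12.9%), against 16.4%. The 8 included comp27846_c0, at 10.9-fold, and the UGT comp29535_c0, at 3.15-fold.

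Pupae differed from males in either direction. The median ratio was 1.06 over the members and 1.099 over the 2934, but pupae were at least 2-fold above males in 20 members (32.3%), against 8.38% of the 2934, and at least 2-fold below in another 20 (32.3%), against 8.49%. The ratios ran from 0.0413, in comp28534_c1, to 26.5, in comp27846_c0.

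The male library and the female-labelled library differed less than 2-fold for each of the 62 members. The ratio of the latter to males had a median of 0.906 over the members and 0.965 over the 2934, with a range of 0.589, in comp25808_c0, to 1.15 over the members. A 2-fold difference was seen in 0 members in either direction, and in 0% above and 0.0341% below among the 2934. The interval of the ratio lay wholly below 1 for 30 members and wholly above 1 for 4. These calls depend on the number of counts, and no share of the 2934 is at hand for them. The dsx isoforms of the female-labelled library were also nearer to those of males, as given above.

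Mated females lay below both other adult libraries for 50 of the 62 members, against 38.8% of the 2934 unigenes, and above both for 10. The ratio of mated females to the female-labelled library had a median of 0.618 over the members and 1.18 over the 2934. Mated females were at least 2-fold below in 19 members (30.6%), against 12.6% of the 2934, and at least 2-fold above in 1 member, comp25020_c0 at 2.12-fold, against 17.9%. The interval of the ratio lay wholly below 1 for 43 members and wholly above 1 for 11. Such calls depend on the number of counts. No share of the 2934 was computed for them or for mated females above both, so they describe the members only. The lowest ratio was that of comp30474_c1, 0.153, also a unigene next to the egg bound of 4, with FPKM 3.82 in eggs, 62.20 in larvae, 15.02 in pupae, 95.31 in the male, 102.76 in the female-labelled and 15.74 in the mated female library. Pupae and mated females were its low points after eggs.

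Over the 2934 unigenes the ratio of mated females to the female-labelled library moved with the egg level. Its median was 0.607 for the 40 unigenes below FPKM 4 in eggs, 0.543 for the 122 from 4 to below 11, 0.842 for the 530 from 11 to below 26, 1.29 for the 964 from 26 to below 51 and 1.45 for the 1278 at 51 or more. The 40 hold the 39 members chosen by the bounds at 11 and 4 and 1 unigene left out by the rule, so their median is that of members. Among the 122, the 98 that did not meet the bounds had a median of 0.534. The part of egg RNA inside the mated females in this was not tested. The scaling factors by which the authors divided the libraries were highest in eggs, 1.30, and next in mated females, 1.11, and lay between 0.868 and 0.937 in the others.

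**Figure D4:**
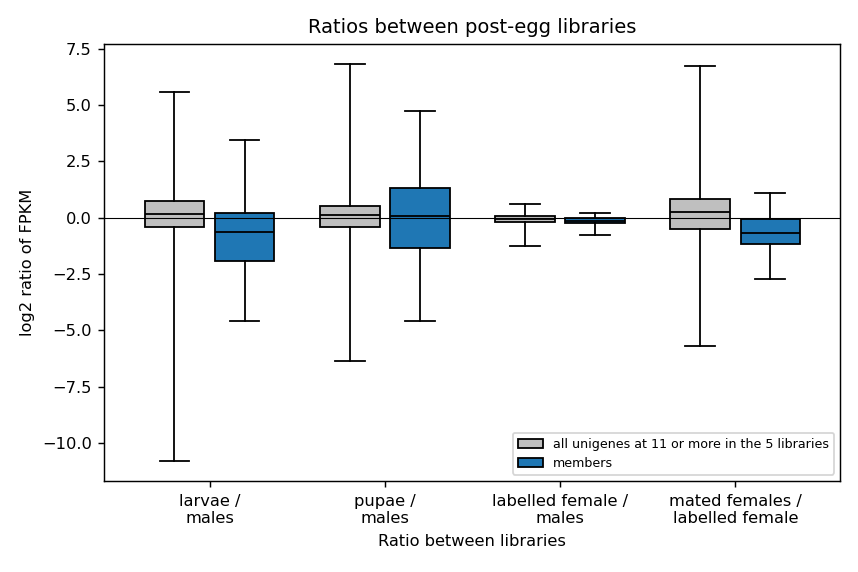
log2 ratio of FPKM between later libraries for the 62 members (blue) and the 2934 unigenes at 11 or more in all 5 (grey), with boxes from the lower to the upper quartile, a line at the median and whiskers to the lowest and highest ratio. The members' box is wide for pupae to males, narrow for the female-labelled library to males, and mostly below 0 for mated females to the female-labelled library.

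The rule did not use isoforms, and their shares differed between stages in part of the members. Of the 62, 31 (50%) had a single isoform, against 59.6% of all unigenes and 40.7% of the 2934, and the largest number was 10, in comp28564_c0. Among the 31 members with more than 1 isoform, the isoform with the most counts was the same in all 5 later libraries for 17 and differed for 14. It was the same in males and the female-labelled library for 29 of the 31, in the female-labelled library and mated females for 25, in larvae and males for 23 and in pupae and males for 23. The largest shift of isoform shares between a pair of later libraries had a median of 32.4 percentage points. It takes the largest of several pairs for each member, so it is high by construction. Neither the shift nor the counts of leading isoforms were computed over the 2934, so they describe the members only. Shares are those that the authors' software assigned, since a read can fit more than 1 isoform, and their intervals are Wilson intervals.

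The largest shift was that of the P450 comp28541_c0 (CYP6A13), which has 8 isoforms. Its isoform seq3 took 87.2% of the counts in eggs (interval 79.6% to 92.2%) and 75.4% in larvae (73.0% to 77.7%), and 0 counts in pupae, males, the female-labelled library and mated females, which allows a share of up to 0.493% in pupae by the Wilson interval. Isoform seq6 led in pupae, with 45.8% (42.3% to 49.3%). Isoform seq14 took 51.5% in males and 49.3% in the female-labelled library, 13.9% in mated females and 0 counts in eggs, larvae and pupae. In mated females seq12 led with 35.1%. Of the isoforms at 1% or more in larvae, seq6 was also found in adults, with 5.10% in males, 8.88% in the female-labelled library and 8.26% in mated females, against 24.2% in larvae.

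comp25283_c0, paired with FBgn0039040, had a single egg count and FPKM 0.08 in eggs, 23.17 in larvae, 19.87 in pupae, 104.49 in the male, 103.00 in the female-labelled and 59.33 in the mated female library. Its isoform seq3 took 98.4% of the larval counts (95.5% to 99.5%), 36.8% in pupae, 11.4% in the male, 8.32% in the female-labelled and 4.89% in the mated female library (3.57% to 6.66%). Isoform seq4 took 1.55%, 63.2%, 80.2%, 83.0% and 86.0% of the counts in the same order. The leading isoform of larvae was thus not that of the other later libraries.

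comp30330_c0, with no annotation used here, was at FPKM 1.63 in eggs, 90.72 in larvae, 15.05 in pupae, 131.93 in the male, 121.71 in the female-labelled and 54.26 in the mated female library. Isoform seq7 took 60.5% of the counts in larvae (55.9% to 64.9%), 48.8% in pupae, 9.10% in males (7.42% to 11.1%), 12.8% in the female-labelled library and 42.4% in mated females. Isoform seq2 led in males and in the female-labelled library, with 37.9% and 36.7%. For this unigene mated females resembled larvae and pupae more than they resembled the other adult libraries in the share of seq7.

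**Figure D5:**
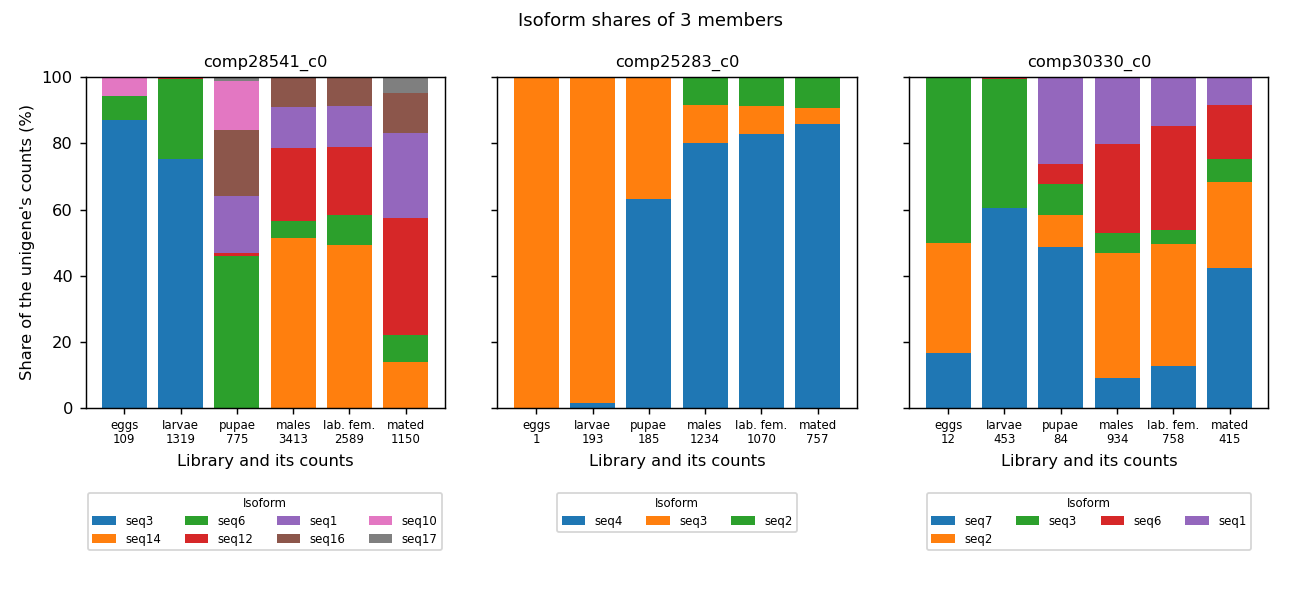
Share of the counts of a unigene (%) by isoform in the 6 libraries, for comp28541_c0, comp25283_c0 and comp30330_c0, with the counts of the unigene under each library. The egg bars rest on 109, 1 and 12 counts, and the leading isoform of larvae is not that of males in any of the 3.

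The transcripts of the members were short beside those of the other unigenes. The length recovered from the ratio of counts to FPKM had a median of 1414 bases over the members, 1808 over all unigenes with such a length and 2021 over the 2934. The members ran from 519 bases, in comp15490_c0, to 7716, in comp28740_c0. These are estimates that depend on how isoforms were weighted. Over 2422 well-counted unigenes with more than a single isoform, weighting by egg isoform counts came nearest to the recovered lengths. It was a median of 1.09% off, with 61.5% of them within 2%, against 1.99% off for mated females and 3.47% for the female-labelled library. The weighting that the authors used was not tested further. The deposited unigene FPKM uses the same length in every library, so for members whose isoforms differ between libraries the ratios between libraries also depend on the weighting, as the summed values of both CYP12E1 copies and CYP6A13 show.

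Names were found for part of the members. The annotation tables used here, which are partial, pair 17 of the 62 with a D. melanogaster identifier, 28 have an identifier or stand on a list above, and 34 have neither. The unigenes outside the rule that were nearest to the median profile of the members, by Euclidean distance of log2(FPKM + 1) over the 6 libraries, were comp25306_c0 (matched to CG15531), comp26362_c0 and comp29290_c0 (matched to CG30280), at distances of 1.30, 1.34 and 1.39. Their egg FPKM was 4.94, 5.91 and 5.24, above the bound of 4, and their lowest later FPKM, 21.45, 24.17 and 20.79, was below the bound of 26.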

How the data were processed

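RNA of 6 libraries was analysed, 1 per life stage. The authors assembled quality-filtered reads of all stages with Trinity and retained the transcripts likely to code for protein. Reads were aligned with Bowtie 0.12.7 and abundance was estimated with RSEM 1.2.0, versions as in the submitters' processing notes. They deposited expected counts, not normalized, and FPKM values divided by TMM factors, each for 10799 unigenes and 20666 isoforms. The build of a genome plays no part, and 0 unigene identifiers matched a reference list of 17486 genes, so gene names were taken from the study's additional files. Every column was matched to a stage by its name, with 0 columns left without a sample.

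Members were chosen from the deposited FPKM by the bounds given above. Dividing expected counts by FPKM gave the factors and the transcript lengths. Counts were rounded to whole numbers for exact Poisson intervals and exact conditional intervals of ratios, and Wilson intervals were used for isoform shares, at the 95% level. A count of 0 allows up to 3 counts. No p-value was computed. Recovery of factors and the rule were tested on simulated data.

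The members, the gene lists and the rule for the unigenes named were chosen with earlier results of these data known. Named were the members on the P450, GST, UGT and CncC/Keap1 lists or with a symbol in the additional files, the 10 with the highest later mean, the 3 with the largest and the 3 with the smallest ratio to eggs, the member most set apart in each later library, unigenes next to the bounds, the 3 with the largest isoform shift and the 3 most like the members. comp25802_c0, comp26745_c2, comp20371_c0, comp25020_c0 and comp15490_c0 were named after their values were seen. Alternatives were size factors of DESeq2 1.42.0 (R 4.3.3) in place of TMM factors, no such factors, FPKM summed over isoforms, FPKM recomputed for unigenes listed at 0, rounding, thinning to the smallest library, a filter at 10 counts, other bounds, other pseudocounts (0.1 or none in place of 1) and leaving out each later library. Other steps ran in Python 3.11.15, using scipy 1.17.1, pandas 2.3.3 and numpy 2.4.6, and figures were drawn with matplotlib 3.10.9.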

Additional observations from a re-analysis of the deposited data

Results flagged for a closer look

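Unigenes with 0 egg counts are listed at FPKM 0 in every library of the deposited table, whatever their counts in the other libraries, so they fall outside the comparisons above. With FPKM recomputed from isoform lengths, 1 of them met the bounds. comp30130_c1 had 0 counts in eggs, which allows an FPKM of up to 0.342, 222 counts in larvae, 104 in pupae, 342 in the male, 147 in the female-labelled and 214 in the mated female library. The recomputed FPKM was 37.4 in larvae, 15.7 in pupae, 40.7 in the male, 19.9 in the female-labelled and 23.6 in the mated female library. All 5 later libraries were thus above 11, with males and larvae highest. It stands on none of the gene lists.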

How the results depend on the processing

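The number of members, 62, was 41 without TMM factors (39 shared), 39 with the bounds at 11 and 4 only, 32 with those at 26 and 11 only and 9 with those at 26 and 4 only. It was 163 with larvae left out, 119 with pupae left out and 139 with mated females left out, against 62 without males and 63 without the female-labelled library. DESeq2 size factors gave 68 (61 shared), FPKM summed over isoforms 76 (60 shared, without comp29859_c0 and comp25529_c0), rounding 61 (56 shared) and the upper Poisson limit of eggs 46. Without TMM factors the CncC/Keap1 list held 1 member in place of 4, and 42 unigenes were low in eggs alone in place of 64. Those low in pupae alone were 37 in place of 31, in mated females alone 37 in place of 31, and in larvae alone 20 in place of 10. With FPKM summed over isoforms 4 members were highest in mated females in place of 2. The median ratio of the later mean to eggs, 12.1, was 9.27 without TMM factors, 12.9 with DESeq2 size factors, 12.5 summed over isoforms, 16.8 with 0.1 added and 18.2 with nothing added.

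In the order without TMM factors, with DESeq2 size factors and summed over isoforms, the median ratio of larvae to males was 0.605, 0.609 and 0.588, that of the female-labelled library to males 0.914, 0.904 and 0.921, and that of mated females to the female-labelled library 0.729, 0.580 and 0.666, where the 2934 unigenes gave 1.40, 1.11 and 1.29. That of pupae to males was 1.04 with DESeq2 size factors and 1.05 summed over isoforms. None of these medians over the members crossed 1 under these alternatives. Over the 11 enzymes, the median ratio of larvae to males was 1.0 as deposited. It was 0.936 without TMM factors, 0.942 with DESeq2 size factors and 0.903 summed over isoforms. Counts not given here stayed within 1.5 times their value in the report. FPKM summed over isoforms without TMM factors (44 members) and the alternatives for the 10-fold range (11 or 12 members in place of 9), for the order of libraries in the enzymes and for the egg levels without members were chosen after the values were seen. Where a value moved, the cause was not tested beyond the construction of the alternative.

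No paired analysis was possible because each stage has 1 library. Depth limits the egg levels of the 7 members with fewer than 10 egg counts, and intervals leave out variation between insects.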
